A study of Homo sapiens with 6 samples.

Results

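The metallothioneins and the genes that set zinc uptake, export and sensing were followed in LOX-IMVI melanoma cells in which NFKBIZ had been knocked down. There were 10 such genes among the 47432 rows of each expression table, found by gene symbol. They were 6 metallothionein genes (MT2A, MT1E, MT1X, MT1F, MT1G and MT1M), the zinc sensor MTF1, the zinc exporter SLC30A1, and the zinc importers SLC39A14 and SLC39A8. LOX-IMVI is an established human melanoma line, kept in RPMI-1640 medium with serum. The shCtrl cells carried a lentiviral control vector and the shNFKBIZ cells a lentiviral short hairpin RNA against NFKBIZ, which encodes the nuclear co-regulator IκBζ, and cells of both groups had been transduced and selected with puromycin. Each group had 3 libraries of total RNA, from independent experiments according to the methods of the study. With 1 hairpin against NFKBIZ, an effect of its sequence on other transcripts and an effect of lower NFKBIZ cannot be told apart.

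Metallothioneins are small cytosolic proteins rich in cysteine, through which they bind zinc and copper. Their genes lie side by side on chromosome 16 and are induced by zinc, cadmium, glucocorticoids, oxidative stress and cytokines such as IL-6. MTF1 is a zinc finger transcription factor that binds metal response elements when free zinc rises, and switches on metallothionein genes and SLC30A1. SLC30A1 pumps zinc out of the cell across the plasma membrane, whereas proteins of the SLC39A family bring zinc into the cytosol. In inflamed liver, SLC39A14 and metallothioneins belong to the acute phase response to IL-6, and SLC39A8 is known as a target of NF-κB.

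Each library held 22264473 to 24624839 total exon reads. The targeted gene NFKBIZ was lower in shNFKBIZ cells, with a log2 fold change of -1.78 (adjusted p = 7.2e-17 in the quasi-likelihood test of edgeR, SE 0.0581). Of 13843 genes tested, 65.3% had an adjusted p no higher than 0.05, with 32.5% of the genes higher and 32.8% lower, and 8.96% were also changed at least 2-fold, which is called past the threshold below. A difference with an adjusted p of at most 0.05 was thus the usual case in these libraries, and the median size of a log2 fold change was 0.299. Of 8 melanocytic marker genes, only MITF reached 1 TPM (transcript level corrected for gene length and depth) and 3, SOX10 and MLANA among them, had no exon reads. MITF itself was lower in shNFKBIZ cells (log2 fold change -0.77, edgeR adjusted p = 2.55e-05). Of 5 markers of dedifferentiated melanoma, 4 reached 1 TPM, with a summed level of 3611 to 3784 TPM in shCtrl and 3483 to 3564 TPM in shNFKBIZ libraries. Most of this sum was VIM (log2 fold change -0.19), and the other 3 moved both ways, with WNT5A lower (-1.20, past the threshold) and EGFR (0.66) and AXL (0.17) higher, each at an adjusted p of at most 0.05 in edgeR. The summed level of 4 markers of leukocytes, endothelium and epithelium was 0.593 to 1.02 TPM in shCtrl and 1.60 to 1.91 TPM in shNFKBIZ libraries, mostly from KRT14. The part of these marker genes in the results was not tested.

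The metal response elements of the family are shown first, since they are the feature that MTF1 reads. RefSeq windows on GRCh38.p14 were found for 5 of the 10 genes (MT2A, MT1X, MTF1, SLC30A1 and SLC39A8), and the 250 bases upstream of each annotated start were searched on both strands for TGCACNC and TGCGCNC. The sequences of the genes with a match at their only annotated start are given 5′ to 3′ in the direction of transcription, and capitals mark each match, on either strand.
MT2A (chr16:56608334-56608583, plus strand): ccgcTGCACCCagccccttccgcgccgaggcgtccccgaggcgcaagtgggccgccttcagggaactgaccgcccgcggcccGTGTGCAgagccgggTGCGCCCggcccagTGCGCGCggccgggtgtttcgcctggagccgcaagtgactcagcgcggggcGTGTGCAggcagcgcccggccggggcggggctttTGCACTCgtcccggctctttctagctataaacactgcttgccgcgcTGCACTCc
MT1X (chr16:56682220-56682469, plus strand): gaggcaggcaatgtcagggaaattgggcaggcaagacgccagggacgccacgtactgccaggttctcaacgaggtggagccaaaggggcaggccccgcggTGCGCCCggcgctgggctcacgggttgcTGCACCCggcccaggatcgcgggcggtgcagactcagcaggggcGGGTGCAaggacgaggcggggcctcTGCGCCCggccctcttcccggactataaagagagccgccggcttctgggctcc
SLC30A1 (chr1:211579162-211579411, minus strand): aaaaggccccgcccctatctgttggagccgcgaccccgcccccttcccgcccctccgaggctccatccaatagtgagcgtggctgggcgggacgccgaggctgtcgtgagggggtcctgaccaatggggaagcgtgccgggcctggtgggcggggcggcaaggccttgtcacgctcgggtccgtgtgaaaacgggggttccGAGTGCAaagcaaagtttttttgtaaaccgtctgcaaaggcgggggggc

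MT2A held 7 matches, a number reached by 0.0313% of the 35116 RefSeq windows of the same length. MT1X held 4 matches, reached by 0.37% of windows. SLC30A1 held 1, and 24.8% of windows held at least 1. The MTF1 window held none, and 1 of the 3 SLC39A8 windows held 1. Metallothionein genes without reads had such matches too, with 3 upstream of MT1B and 8 upstream of MT1H. A single form of the NF-κB motif (GGGA, any 2 bases, TTCC) was in 1.4% of all windows and in no window of the 5 genes. Other forms of it, and sequence further upstream, were not searched. The STAT motif TTCNNNGAA was in 6.57% of all windows and, of the 5 genes, in that of MT2A, 194 to 186 bases before the start. A match describes these letters and is no evidence of binding.

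MT2A was lower, and MT1E and MT1X were higher, in shNFKBIZ than in shCtrl cells. These were the metallothionein genes that the cells expressed in quantity. The cluster spans 119.1 kb of chromosome 16 (56565073 to 56684196, hg38), and of its 11 protein-coding metallothionein rows, 7 had no exon read in any of the 6 libraries. MT1F and MT1M were among these 7, and 0 reads allow a level of up to 0.122 to 0.135 CPM (counts scaled by library total), depending on the library, for counting error only. The other rows without reads in the cluster were MT1A, MT1B, MT1H, MT3, the form typical of the nervous system, and MT4, the form typical of stratified epithelium. The list of 14 other metallothionein genes and pseudogenes, these 5 included, matched 7 rows by name, and 6 of them had no reads.

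**Figure D1:**
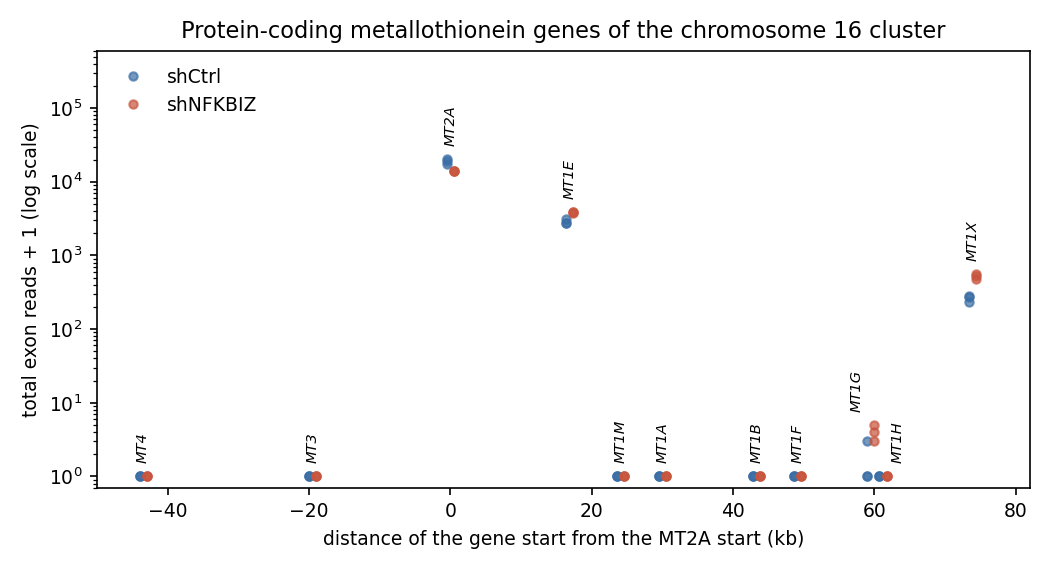
Total exon reads plus 1 (log axis) of the 11 protein-coding metallothionein genes against the distance of each gene start from the MT2A start, in kb. Each point is a library, with shCtrl points moved slightly left and shNFKBIZ points slightly right. MT2A, MT1E and MT1X each had over 100 reads in every library, MT1G had 0 to 4, and 7 genes had none.

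MT2A (ENSG00000125148, chromosome 16, 56608584 to 56609497, plus strand), the main metallothionein of most human cells, had 18942, 20371 and 17539 exon reads in the shCtrl libraries. In the shNFKBIZ libraries it had 14104, 13865 and 14208. The groups did not overlap, and all shNFKBIZ libraries were lower. In TPM it went from 3376 ± 79.4 in shCtrl to 2629 ± 13.4 in shNFKBIZ cells (SD, n = 3 each), which placed it at rank 28 and rank 34 among the 47432 genes. The log2 fold change was -0.44 (edgeR adjusted p = 1.65e-10, SE 0.0339), which is 1.36-fold lower, and 34.4% of the genes tested changed by at least as much. As in any bulk RNA sample, fewer cells that express a gene and less of its RNA per cell cannot be told apart.

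MT1E (ENSG00000169715, chromosome 16, 56625475 to 56627112, plus strand) lies 16.9 kb downstream of MT2A and moved the other way. It had 2751, 3120 and 2732 exon reads in the shCtrl and 3895, 3752 and 3898 in shNFKBIZ libraries. Every shNFKBIZ library was above every shCtrl library. The level rose from 444 ± 21.1 to 625 ± 6.31 TPM (SD, n = 3 each), and the rank from 268 to 183. The log2 fold change was 0.41 (edgeR adjusted p = 7.31e-09, SE 0.0397), or 1.33-fold, and 37.4% of genes changed by at least as much.

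MT1X (ENSG00000187193, chromosome 16, 56682470 to 56684196, plus strand) showed the largest change of the 7 genes tested. It had 284, 268 and 233 exon reads in the shCtrl and 525, 482 and 557 in shNFKBIZ libraries, with no overlap. The level rose from 24.7 ± 1.59 to 51.6 ± 2.86 TPM (SD, n = 3 each), and the rank from 5608 to 3171. The log2 fold change was 0.98 (edgeR adjusted p = 2.8e-10, SE 0.0774), or 1.97-fold, which 9.58% of genes reached. This was just inside the 2-fold limit, and the call changed with the kind of read: on unique exon reads the log2 fold change was 1.11 (SE 0.0869) and MT1X was past the threshold. It was also past the threshold with library size alone, at 1.07, without shCtrl replicate 1, at 1.04, and without shNFKBIZ replicate 2, also at 1.04. In the annotation MT1X overlaps a long noncoding RNA (ENSG00000259827) that had no exon reads.

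MT1G was close to the limit of detection. It had 0, 0 and 2 exon reads in the shCtrl and 2, 3 and 4 in shNFKBIZ libraries, a ratio of summed reads, scaled by library totals, of 4.74 with an exact 95% interval of 0.982 to 45.1. Of these reads, none of the 2 in shCtrl and 2, 1 and 4 in the shNFKBIZ libraries were unique. This interval includes a ratio of 1, and it is for counting error of the summed reads only, without the spread between libraries. The noncoding row MT1JP in the same cluster had 13 reads in each group, a ratio of 1.05 (0.450 to 2.47, also for counting error only).

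**Figure D2:**
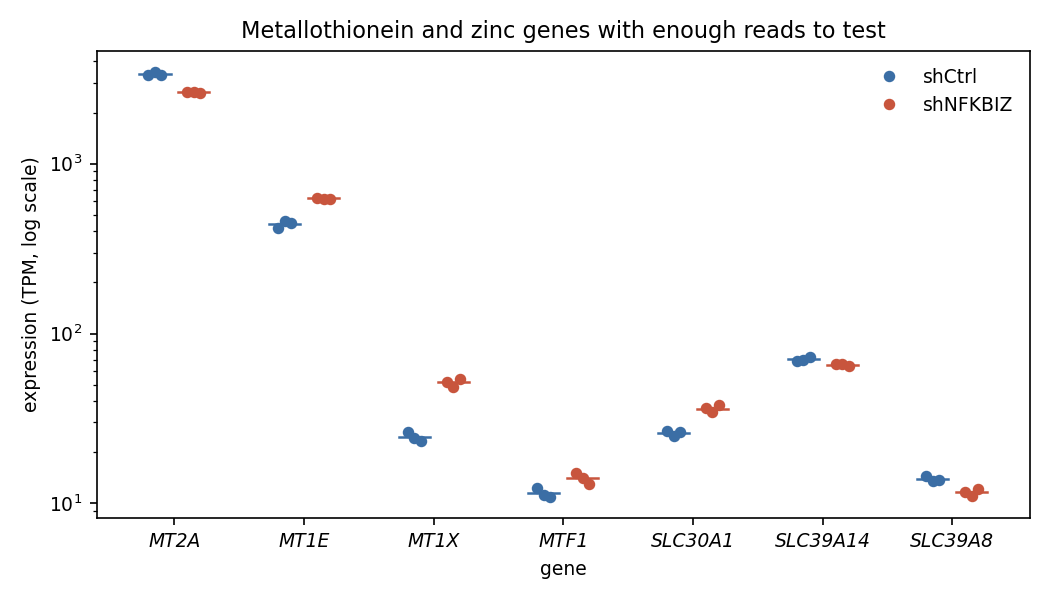
Expression in TPM (log axis) of the 7 genes with enough reads to test. Each point is a library and each bar the mean of 3, with shCtrl in blue and shNFKBIZ in red. MT2A, SLC39A14 and SLC39A8 are lower and MT1E, MT1X, MTF1 and SLC30A1 are higher in shNFKBIZ, and the groups do not overlap in TPM.

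The coding sequences of the 6 metallothionein genes are alike, so reads can map to more than one of them. For each gene the complete coding sequence with the most cysteine codons, and then the shortest, was taken (GENCODE 44 transcripts). Each sequence so chosen has 61 codons without the stop, 20 of them for cysteine. Over 15 pairs the coding bases were 88.5 to 95.1% identical. Of the MT2A exon reads, 99.9% in each group were counted as unique. For MT1E the share was 97.2% in shCtrl and 96.8% in shNFKBIZ, and for MT1X it was 74.3% and 81.3%. MT1X also shares its annotated start with the noncoding row ENSG00000259827. Which other sequence its remaining reads fit was not tested. On unique exon reads MT2A had a log2 fold change of -0.45 (SE 0.0339) and MT1E of 0.40 (SE 0.0391), both close to the values on total reads. Reads that are unique and cross a splice junction, which leave out intron and unspliced reads, gave -0.39 (SE 0.0357) for MT2A, 0.48 (SE 0.0494) for MT1E and 1.22 (SE 0.124) for MT1X.

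**Figure D3:**
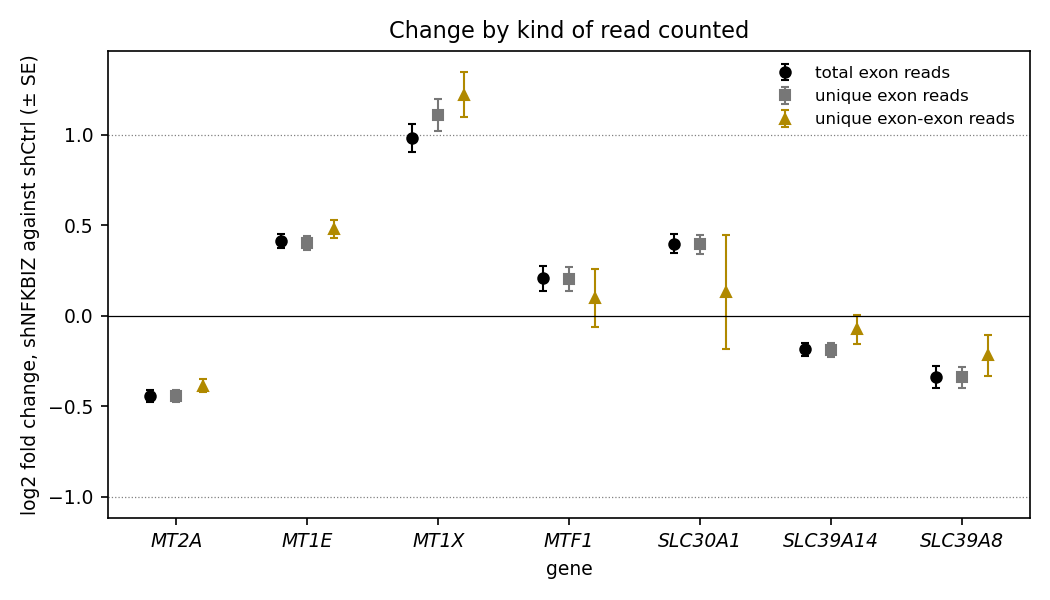
Log2 fold change (shNFKBIZ against shCtrl) of the 7 genes for 3 kinds of read, with bars of 1 standard error. Dotted lines mark a 2-fold change. MT1X is at 0.98 on total, 1.11 on unique and 1.22 on unique exon-exon reads, and the junction values of MTF1, SLC30A1, SLC39A14 and SLC39A8 lie nearer to 0 with wider bars.

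The mixture of metallothionein transcripts within a library does not depend on how libraries are scaled to each other. The share of MT2A in the summed metallothionein exon reads was 86.2, 85.7 and 85.5% in shCtrl and 76.1, 76.6 and 76.1% in shNFKBIZ libraries, a difference of -9.54 percentage points. MT1E took 13.0 ± 0.421% (SD, n = 3) in shCtrl and 20.9 ± 0.149% in shNFKBIZ libraries, and MT1X took 1.19 ± 0.0925% and 2.83 ± 0.161%. For every 100 reads of MT2A there were thus 15.1 of MT1E in shCtrl and 27.4 in shNFKBIZ cells. The log2 ratio of MT1E to MT2A was higher by 0.85 on total exon reads, 0.85 on unique and 0.87 on unique junction reads. That of MT1X to MT2A was higher by 1.43, 1.55 and 1.61, and that of MT1X to MT1E by 0.57, 0.71 and 0.74, so the 3 genes changed by unequal amounts.

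The sum over the 6 genes was lower in shNFKBIZ cells, with 21977, 23759 and 20506 exon reads in the shCtrl and 18526, 18102 and 18667 in shNFKBIZ libraries. As CPM with TMM factors the sum was 963 ± 35.4 and 797 ± 14.1 (SD, n = 3 each), a ratio of 0.828. A total of 15 sums, shares and ratios were compared by exact permutation tests, two-sided, and in each the groups did not overlap and p was 0.1, the smallest that 3 against 3 libraries can give, also after Benjamini-Hochberg adjustment. No overlap in CPM was common, at 68.7% of all genes tested. Of the 7 genes tested here, MTF1 did overlap in CPM, at 26.545 in shCtrl replicate 1 and 26.542 in shNFKBIZ replicate 3.

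**Figure D4:**
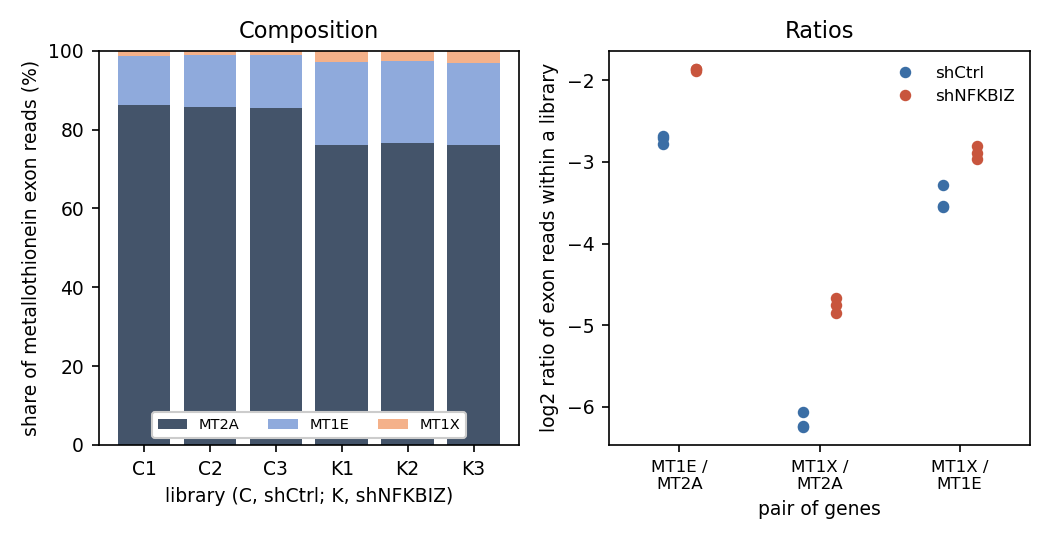
Left, share (%) of MT2A, MT1E and MT1X in the summed metallothionein exon reads of each library; right, log2 ratio of exon reads of gene pairs, each point a library. The MT2A share is 85.5 to 86.2% in shCtrl (C) and 76.1 to 76.6% in shNFKBIZ (K), and all 3 ratios are higher in every shNFKBIZ library.

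MTF1 (ENSG00000188786, chromosome 1, 37809574 to 37859592, minus strand) rose slightly. It had 611, 578 and 505 exon reads in the shCtrl and 706, 646 and 618 in shNFKBIZ libraries, at 11.5 ± 0.704 and 14.1 ± 1.04 TPM (SD, n = 3 each). The log2 fold change was 0.20 (edgeR adjusted p = 0.0104, SE 0.0666), a size that 63.2% of genes reached. This call was lost with DESeq2 (adjusted p = 0.0658), without shCtrl replicate 3 (0.0694 in edgeR) and without shNFKBIZ replicate 1 (0.0925 in edgeR).

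SLC30A1 (ENSG00000170385, chromosome 1, 211571568 to 211579161, minus strand), the exporter that MTF1 is known to induce, rose. It had 980, 942 and 893 exon reads in the shCtrl and 1249, 1167 and 1326 in shNFKBIZ libraries, so that all shNFKBIZ libraries were higher. The levels were 26.0 ± 0.976 and 36.2 ± 1.70 TPM (SD, n = 3 each), with a log2 fold change of 0.40 (edgeR adjusted p = 8.97e-07, SE 0.0526). Of all genes, 39% changed by at least as much. Most of its reads lay within single exons, and on the 12 to 19 unique exon-exon reads per library the log2 fold change was 0.13 (SE 0.316) and did not pass the test (adjusted p = 0.748, edgeR).

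SLC39A14 and SLC39A8 both fell by small amounts. SLC39A14, which imports zinc, iron and manganese, had 2952, 3111 and 2908 exon reads in the shCtrl and 2689, 2619 and 2648 in shNFKBIZ libraries, at 70.6 ± 2.18 and 65.6 ± 1.05 TPM (SD, n = 3 each). Its log2 fold change was -0.19 (edgeR adjusted p = 0.000124, SE 0.0366), a size that 66% of genes reached. SLC39A8, its close relative (ENSG00000138821, chromosome 4, 102251080 to 102431258, minus strand), had 762, 738 and 673 exon reads in the shCtrl and 583, 538 and 613 in shNFKBIZ libraries, at 13.9 ± 0.476 and 11.6 ± 0.567 TPM (SD, n = 3 each). Its log2 fold change was -0.34 (edgeR adjusted p = 3.99e-05, SE 0.0602), and 45.1% of genes changed by at least as much. With library size alone both falls were smaller, at -0.10 for SLC39A14 (adjusted p = 0.0231) and -0.25 for SLC39A8 (adjusted p = 0.000912, both edgeR). On unique exon-exon reads the log2 fold changes were -0.08 (SE 0.0807) for SLC39A14 and -0.22 (SE 0.114) for SLC39A8, and neither passed the test (adjusted p = 0.443 and 0.0961, edgeR). SLC39A8 overlaps RN7SL728P and a noncoding row in the annotation, both on the strand of SLC39A8.

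All 7 of the 10 genes that passed the filter on low counts had an adjusted p of at most 0.05 in edgeR, 4 higher (MT1E, MT1X, MTF1, SLC30A1) and 3 lower (MT2A, SLC39A14, SLC39A8), against 32.5% higher and 32.8% lower among all genes tested. None of the 7 was past the 2-fold threshold in edgeR or DESeq2, where 8.96% of all genes were in edgeR, although all 7 had an unadjusted p under 0.05. Their median log2 fold change was 0.20, beside 0.00 over all genes tested.

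Intron reads gave a second readout, from the same libraries, of those genes with annotated intron sequence. The genes and tests were chosen with earlier results of these data known. MT2A had 0, 0 and 1 intron reads in shCtrl and none in shNFKBIZ libraries, and MT1X had none at all. This was set by the annotation, in which exons cover the whole span of MT2A (914 bases) and MT1X (1727 bases). MT2A and MT1X therefore gave no intron readout, and their unspliced reads would be counted as exonic. SLC30A1 had 5, 3 and 1 intron reads in shCtrl and 6, 7 and 6 in shNFKBIZ libraries, too few to test. MT1E had 19, 18 and 30 in shCtrl and 26, 42 and 39 in shNFKBIZ libraries, a log2 fold change of 0.58 (edgeR adjusted p = 0.0581, SE 0.245). None of the 4 genes with enough intron reads had an adjusted p of at most 0.05 in edgeR, against 38.8% of the 12119 genes tested on introns, and MT1E alone had an unadjusted p under 0.05, at 0.0234. The MT1E call depended on the scaling and on single libraries: its adjusted p was 0.0343 with the TMM factors of exon reads (log2 fold change 0.66), 0.0158 without shCtrl replicate 3 (0.86) and 0.0256 without shNFKBIZ replicate 1 (0.74), all in edgeR, and it ranged up to 0.246 without another library (shCtrl replicate 2, 0.42).

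The remaining intron changes were small and had wide errors. SLC39A8 had 61, 86 and 70 intron reads in shCtrl and 91, 76 and 90 in shNFKBIZ libraries (log2 fold change 0.16, SE 0.146). SLC39A14 had 90, 88 and 72 in shCtrl and 101, 102 and 92 in shNFKBIZ libraries (0.15, SE 0.131). MTF1 had 47, 53 and 62 in shCtrl and 54, 58 and 40 in shNFKBIZ libraries (-0.18, SE 0.176). The exon change minus the intron change, tested in a single edgeR model with library blocks, was -0.48 for SLC39A8 (adjusted p = 0.00863, SE 0.148). It was -0.32 for SLC39A14 (adjusted p = 0.0537, SE 0.131), 0.40 for MTF1 (adjusted p = 0.0791, SE 0.178) and -0.16 for MT1E (adjusted p = 0.653, SE 0.232). Of the 4 genes 1 passed this test, beside 28.9% of the 11025 genes in the model.

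Among the 14 zinc importers of the SLC39A family, most of those expressed were lower in shNFKBIZ cells. Of 11 tested, 8 fell and 2 rose at an adjusted p of at most 0.05 in edgeR, beside 32.8% lower and 32.5% higher among all genes tested, and the median log2 fold change was -0.19. One was past the threshold: SLC39A10, a plasma membrane importer, had 2351, 2372 and 2294 exon reads in the shCtrl and 950, 880 and 946 in shNFKBIZ libraries. Its level fell from 55.2 ± 2.12 to 22.9 ± 0.675 TPM (SD, n = 3 each), a log2 fold change of -1.35 (edgeR adjusted p = 1.05e-16, SE 0.0451). Under the 15 alternatives, the call of SLC39A4 was kept in 11 and those of SLC39A6 and SLC39A7 in 13 each, and with library size alone SLC39A6 was at -0.07 and SLC39A7 at -0.09. No other tested zinc transporter of either family changed as much.

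The intron reads of SLC39A10 numbered 171, 188 and 192 in shCtrl and 160, 194 and 163 in shNFKBIZ libraries, which overlap (log2 fold change -0.18, SE 0.0985, adjusted p = 0.141). The exon change minus the intron change was -1.16 (edgeR interaction, adjusted p = 1.17e-16, SE 0.106). SLC39A11, named here after its values were seen because it lay just inside the 2-fold limit, also differed between the readouts. Its log2 fold change was -0.99 (SE 0.0774) on exon and 0.12 (SE 0.0718) on intron reads, a difference of -1.10 (adjusted p = 1.17e-16, SE 0.101). With the TMM factors of exon reads the intron change was 0.20 (adjusted p = 0.0333), beside an adjusted p of 0.172 in the main fit, both edgeR. On total gene reads, which join exon and intron reads, SLC39A11 was at -0.35. The counting did not use strand, and in the annotation SLC39A10 overlaps RNU6-915P on the opposite strand. SLC39A11 overlaps 3 noncoding rows, 1 of them on the opposite strand. The exon change also differed from the intron change for SLC30A6 (-0.59, adjusted p = 0.000537) and SLC39A1 (0.97, adjusted p = 0.00383) in the same edgeR model. Few of the SLC39A1 exon reads were unique (1.39% in shCtrl, 1.47% in shNFKBIZ), so its difference cannot be assigned to SLC39A1 alone.

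The importers with at least 50 TPM in a group changed less. SLC39A6, which is at the cell surface, went from 148 ± 3.998 to 141 ± 1.20 TPM (SD, n = 3 each; log2 fold change -0.15, adjusted p = 0.000727, edgeR). SLC39A7, which releases zinc from the endoplasmic reticulum, had 192, 203 and 208 TPM in shCtrl and 179, 204 and 181 TPM in shNFKBIZ libraries, so that its groups overlapped in TPM (log2 fold change -0.18, adjusted p = 0.000637, edgeR). SLC39A13, which lies in membranes of the secretory pathway, rose the most, from 40.1 ± 0.708 to 54.2 ± 4.33 TPM (SD, n = 3 each; log2 fold change 0.35, adjusted p = 1.93e-06, edgeR), and the other importer that rose was SLC39A3 (0.24). SLC39A1 did not pass the test (0.08, adjusted p = 0.0691, edgeR), and 1.39% of its exon reads in the shCtrl and 1.47% in shNFKBIZ were unique, so its reads cannot be told apart from those of other rows at that place.

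**Figure D5:**
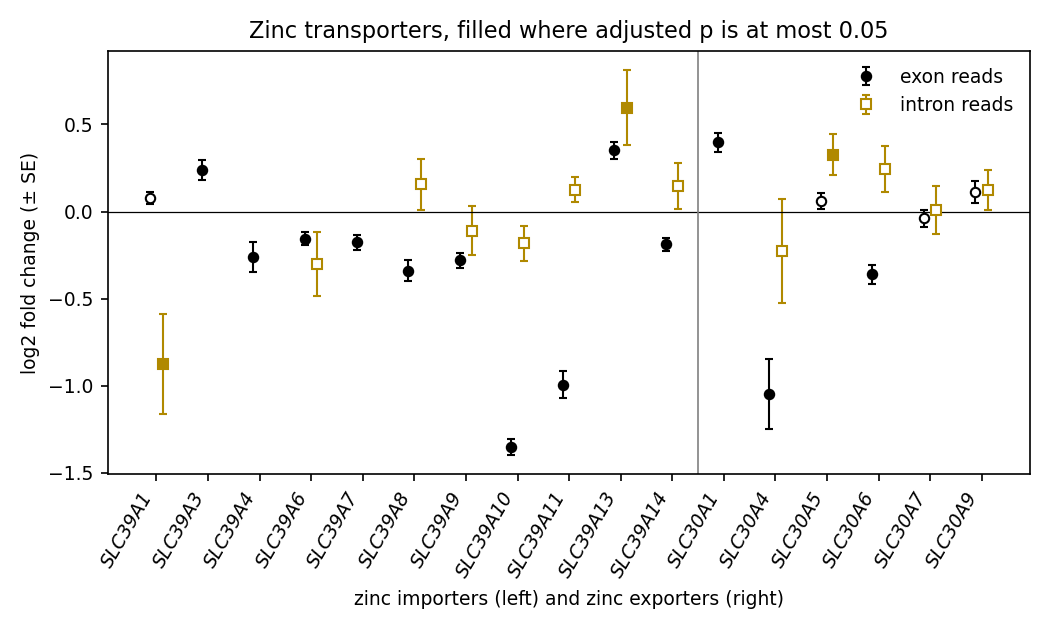
Log2 fold change (shNFKBIZ against shCtrl, bars of 1 standard error) of the 11 SLC39A importers and 6 SLC30A exporters tested, on exon reads (black circles) and, where tested, intron reads (yellow squares). Symbols are filled where the adjusted p is at most 0.05. SLC39A10 and SLC39A11 stand at -1.35 and -0.99 on exon reads and at -0.18 and 0.12 on intron reads. SLC30A1 is the only exporter that rose on exon reads, while SLC30A5 rose on intron reads (0.33).

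Of the 10 exporters of the SLC30A family, 6 were tested, with 1 higher (SLC30A1), 2 lower and 3 that did not pass the test in edgeR. That is 50% called beside 65.3% of all genes tested, with a median log2 fold change of 0.01. SLC30A4, an exporter of internal vesicles, was past the threshold with few reads: 75, 72 and 68 in shCtrl and 24, 37 and 44 in shNFKBIZ libraries, at 1.46 ± 0.0548 and 0.745 ± 0.211 TPM (SD, n = 3 each). Its log2 fold change was -1.05 (edgeR adjusted p = 9.24e-05, SE 0.200), 2.06-fold lower, but -0.84 without shNFKBIZ replicate 1, -0.96 with library size alone and -0.83 on total gene reads, all within the 2-fold limit. In the annotation SLC30A4 overlaps another row (ENSG00000259354) on the opposite strand, and the counting did not use strand. SLC30A6, which loads zinc into the Golgi, fell by 0.36 on the log2 scale (adjusted p = 7.84e-06, edgeR). The further exporter TMEM163 had no exon reads and 0 to 5 intron reads per library.

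Of 11 genes of copper and other metal handling, 10 were tested, with 2 higher, 5 lower and 3 that did not pass the test in edgeR. That is 70% called, near the 65.3% of all genes tested, at a median log2 fold change of -0.13. HMOX1, which breaks down heme and releases its iron, was past the threshold, with 20.7, 21.9 and 20.98 TPM in shCtrl and 321, 316 and 311 TPM in shNFKBIZ libraries. That is 14.1-fold higher (log2 fold change 3.81, edgeR adjusted p = 9.52e-24, SE 0.0488). SOD1, the copper and zinc superoxide dismutase, went from 336 ± 8.20 to 317 ± 10.1 TPM (SD, n = 3 each; log2 fold change -0.17, adjusted p = 0.000272, edgeR). The copper exporter ATP7B had the largest fall, by 0.47 on the log2 scale (adjusted p = 0.0135, edgeR), at 0.699 and 0.533 TPM, but it kept this call in 11 of 15 alternatives and was at 0.14 on unique exon-exon reads. CCS, the copper chaperone of SOD1, was the other gene that rose (log2 fold change 0.56).

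Of 8 genes that induce metallothioneins or mark such signals, 1 rose, 4 fell and 3 did not pass the test in edgeR, which is 62.5% called beside 65.3% of all genes tested, with a median log2 fold change of -0.09. IL6, the cytokine that raises metallothioneins in liver, was past the threshold, at 6.96, 9.72 and 9.51 TPM in shCtrl and 0.158, 0.322 and 0.195 TPM in shNFKBIZ libraries (log2 fold change -5.33, edgeR adjusted p = 9.4e-15, SE 0.222). STAT3, which carries the IL-6 signal, went from 68.9 ± 1.78 to 62.0 ± 0.510 TPM (SD, n = 3 each; log2 fold change -0.23, adjusted p = 6.56e-06, edgeR). The receptor subunit IL6ST did not pass the test (-0.03, adjusted p = 0.634, edgeR), at 54.3 ± 3.79 and 56.4 ± 1.89 TPM. Of the glucocorticoid-induced genes in the list, TSC22D3 rose (0.40, adjusted p = 0.00139) and FKBP5 fell by 0.88 (adjusted p = 1.48e-11, both edgeR).

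The genes whose pattern over the 6 libraries was most like that of MT2A, by Pearson correlation of log2 CPM, were ACTG1, CHP1, BCAP31, ACTB and ARPIN-AP3S2, with r from 0.99899 to 0.99972. This is a description: the 6 libraries share the group difference, and 2408 of the 11491 genes compared had r of at least 0.95.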

How the data were processed

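RNA-seq was done on LOX-IMVI cells with a control (shCtrl) or NFKBIZ (shNFKBIZ) hairpin, with 3 libraries each, grouped by their titles. The authors mapped reads to hg38 in CLC Genomics Workbench with default settings and without using strand, and deposited whole-number counts per gene split into exon and intron reads and into unique and total reads. The total also includes fragments that are not unique, such as those with several places in the genome. TPM was recomputed from the deposited total exon counts and exon length. Depth was 22264473 to 24624839 total exon reads per library. TPM is not corrected by TMM factors, so small differences in TPM and fitted fold changes can differ.

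Total exon counts were tested with edgeR 4.0.16 in R 4.3.3 (filterByExpr, TMM factors, robust glmQLFit, glmQLFTest, two-sided), with Benjamini-Hochberg adjustment over 13843 genes. The threshold was an adjusted p of at most 0.05 and at least 2-fold. The study also set a limit on an absolute difference, which has no unit and was not used here. The standard error is the size of the log2 fold change divided by the square root of F. Exon and intron changes were compared in a single edgeR model with library blocks. Low counts have exact 95% intervals on the reads summed over the libraries of each group, for counting error only. The fits were tested on simulated data. Coordinates are those of the files (hg38), and those of the 10 genes were identical in GENCODE 44.

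The 10 genes, lists, motifs and tests were chosen with earlier results of these data known. From each list of metal and inducer genes (not the cell type markers) the text names genes past the threshold, genes with at least 50 TPM in either group, and the tested genes that fell and rose most. SLC39A3, SLC39A4, SLC39A11, SLC30A5, SLC30A6, CCS and FKBP5 lie outside this rule and were named after their values were seen. Likeness to MT2A was measured over genes with a mean of at least 50 counts. As alternatives, DESeq2 1.42.0, RLE factors, no factors beyond library size, a minimum of 10 counts per library, no filter, unique exon reads, total gene reads, a replicate block, leaving out each library, and other thresholds were run. Unique exon-exon reads and the exon against intron model were added after the data were seen.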

Additional observations from a re-analysis of the deposited data

How the results depend on the processing

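With 3 libraries per group the exact permutation tests could not reach a p of 0.05. MT1F, MT1G and MT1M were below the depth needed for a test. Across the alternatives, 98 of 105 values of the 7 genes tested kept their direction and their side of an adjusted p of 0.05, 7 lost it and none reversed. The losses were MTF1 with DESeq2, without shCtrl replicate 3, without shNFKBIZ replicate 1 and on unique exon-exon reads (0.632), and SLC30A1 (0.748), SLC39A14 (0.443) and SLC39A8 (0.0961) on unique exon-exon reads. SLC30A1 had 12 to 19 such reads per library, and the cause of the other losses was not tested.

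Of the 10 genes, none was past the threshold, but 1, MT1X, was with library size alone, unique exon reads, unique exon-exon reads or at least 1.5-fold, and 7 were at adjusted p alone. Leaving out a library gave 0 to 1. Of the importers 1 was past the threshold, and 2 (SLC39A10, SLC39A11) without a filter or at 1.5-fold, 10 at adjusted p alone, and 1 to 2 when a library was left out (2 without shCtrl or shNFKBIZ replicate 2). Of the exporters 1 was past the threshold, 0 with library size alone or total gene reads, 3 at adjusted p alone, and 0 to 1 when a library was left out (0 without shNFKBIZ replicate 1). Over all genes the count of 1241 (532 higher, 709 lower) became 657 on unique exon-exon reads, 3098 at 1.5-fold and 9039 at adjusted p alone, and library size alone gave 668 higher and 584 lower. The difference in log2 summed metallothionein reads was -0.27, and -0.18 with library size alone. Deviations from the group mean were hardly correlated between libraries of the same replicate number (0.0207, 0.0561 and 0.0288). Whether these libraries were paired in the experiments cannot be told from this. A replicate block gave 1244 genes past the threshold, none of the 10 genes, and -0.44 for MT2A.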
